A study of Mus musculus with 9 samples.

Results

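Tmem252 and Pgm5 are neighbouring protein-coding genes on mouse chromosome 19 whose 3′ ends face each other. They were selected on the counts: Tmem252 was among the features with the most counts although no GENCODE exon lies opposite it, and Pgm5 is the gene next to it on the other strand. They are 2 of the 55228 features listed, and 1 of them, Tmem252, passed the filter on low counts that left 3722 features for testing. RNA of whole uterine tissue was sequenced on day 7 from 3 groups of 3 mice, 1 library per mouse, after removal of ribosomal RNA. All were C57BL females of 8 weeks, with the genotype given as WT. The sham group had a sham operation. Mice of the injury group had the uterine lining damaged by 10 passes of a 27 gauge needle and were then given 50 μL of PBS. The CRC group had the same injury and then 50 μL of WT CRCs, which are endometrial epithelial cells of the mouse kept in culture by conditional reprogramming on irradiated 3T3 feeder cells. Counts from host and transplanted cells cannot be told apart, since both are of the mouse.

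Pgm5, also called aciculin, belongs to the phosphoglucomutase family but lacks its enzyme activity. It is a structural protein of muscle, found where actin filaments meet the cell membrane, and it binds dystrophin, utrophin and filamin C. Smooth muscle forms the myometrium, the outer wall of the uterus. Tmem252 encodes a small transmembrane protein that is little characterised.

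Tmem252 (ENSMUSG00000048572.5) lies on the plus strand of GRCm38 chromosome 19, from 24674008 to 24682233 in GENCODE M21. Its transcript Tmem252-201 has an exon 1 of 336 bases and an exon 2 of 4698 bases, from 24677536 to 24682233, and encodes 183 residues. The stop codon lies in exon 2 at 24677810 to 24677812, so that 4421 bases of that exon are 3′ UTR. Pgm5 (ENSMUSG00000041731.13) lies on the minus strand from 24683016 to 24861855, and its transcript Pgm5-201 encodes 567 residues. Its last exon, from 24683016 to 24684574, ends 782 bases from the end of Tmem252. The 2 gene starts lie 187847 bases apart. In GENCODE M21 the genes do not overlap.

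RefSeq on GRCm38.p6 draws the facing ends differently. There Tmem252 ends earlier, at 24679661, and Pgm5 reaches down to 24678261, which is 4755 bases past its end in GENCODE. This RefSeq span of Pgm5 covers 3973 bases of exon 2 of Tmem252, or 78.9% of the exon bases of Tmem252 in GENCODE, and stops 448 bases short of its stop codon. The RefSeq spans of both genes overlap by 1401 bases. The absence of an opposite exon, on which Tmem252 was selected, held for GENCODE. For RefSeq it is not known, since gene spans were at hand and exons were not. Whether counting took account of strand is not given in the sources used here. Of features whose exons overlap on opposite strands, Gm48529 held 130075 counts and Tagln 159, and Taf10 held 42361 and Ilk 151. Rrp8, also opposite Ilk, held 80, fewer than Ilk. What these values owe to the strand setting of counting was not tested. A count per feature does not show where in a feature its reads lie. How many counts of Tmem252 came from the stretch inside the RefSeq span of Pgm5, and from which strand, could not be measured.

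**Figure D1:**
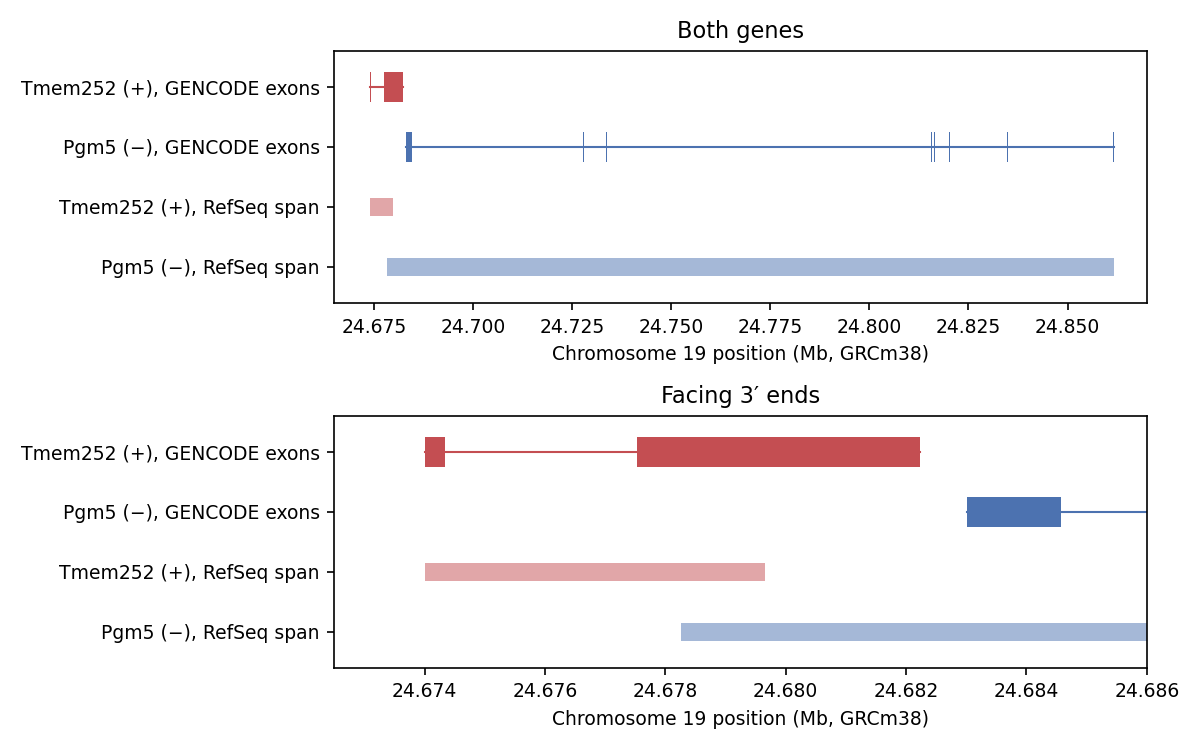
Map of Tmem252 (red, plus strand) and Pgm5 (blue, minus strand) along chromosome 19 in Mb of GRCm38, with exons of Tmem252-201 and Pgm5-201 from GENCODE M21 as dark boxes and RefSeq gene spans as pale bars; the upper panel shows both genes and the lower panel the facing 3′ ends. The GENCODE genes are 782 bases apart, while the RefSeq span of Pgm5 covers 3973 bases of exon 2 of Tmem252.

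Tmem252 held 24298 counts over the 9 libraries, and Pgm5 held 1. Per kilobase of exon, these came to 4827 counts for Tmem252 and 0.277 for Pgm5. By counts Tmem252 ranked 9th of all features, 8th or 9th in each library, and 5th of the 21706 protein-coding features. Per kilobase of exon it ranked 18th. The features above it by counts were Gm48529, CT010467.1, Gm37376, Gm20721, Tsix, Taf10, Ap3m1 and Syn3, and each of these has an annotated exon on the opposite strand, as has the next one, Gm9747. These ranks are the values that chose Tmem252.

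Of the features placed in GENCODE, 44585 (83.4%) have no exon opposite, and together these held 20.2% of the placed counts. Tmem252 alone held 4.53% of the counts on them and was the highest of them in each library. It held 3.36 times the counts of the next, Prr33, with 7226. After Prr33 came Gm16185 with 4516 counts, Gm43980 with 4445, Cdk13 with 3747, Muc6 with 3587, Gm10773 with 2543, Lrrc4 with 2352, Cep85 with 2205 and Rrbp1 with 2175. Of these 10 features Tmem252 was the only one with exon bases inside the RefSeq extension of a gene on the other strand. Muc6 has the same arrangement in GENCODE, as its 3′ end faces that of Ap2a2, which held 1 count, at 444 bases. Prr33, Gm16185, Gm43980, Cdk13, Gm10773 and Lrrc4 each overlap the span of a gene on the other strand in GENCODE. Tmem252, Muc6, Cep85 and Rrbp1 overlap none there. A place inside the span of an opposite gene was therefore not particular to Tmem252. A facing gene lay within 1 kb for 17.7% of the tested features without an opposite exon, against 3.55% of all such features. A RefSeq extension of an opposite gene covers 276 of the features without an opposite exon, and 45 of them (16.3%) passed the filter on low counts, against 1413 of the other 44309 (3.19%). Among protein-coding features these shares were 22.0% of 173 and 5.17% of 16302. The extended feature with the most counts after Tmem252 was Mroh2a, with 1286.

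The depth of a library, its total over all features, was 325384, 317754 and 327883 counts for sham replicates 1 to 3. It was 290684, 280886 and 282937 for the injury libraries, and for those of CRC 288619, 289964 and 290833. The sham libraries stood apart in their spread. Pairs of sham libraries differed by a chi-square per degree of freedom of 4.12 to 11.9, highest between sham replicates 1 and 2, while pairs within the other groups lay between 2.20 and 3.41. Results on the sham group are therefore also given without single sham libraries.

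Sham replicates 1 to 3 had 3608, 2124 and 2729 counts of Tmem252, the injury libraries 2360, 2687 and 2564, and the CRC libraries 2467, 2983 and 2776. As a share of all feature counts this was 1.11%, 0.668% and 0.832% for sham, 0.812%, 0.957% and 0.906% for injury and 0.855%, 1.03% and 0.955% for CRC. In sham replicate 1 the exact 95% binomial interval of the share was 1.07% to 1.15%, and in sham replicate 2 it was 0.640% to 0.697%. The highest and the lowest share thus came from the same group.

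In CPM, which are counts brought to an equal library size with TMM factors, Tmem252 measured 11702, 7862 and 9758 for sham, 8189, 9448 and 8997 for injury and 7514, 9166 and 8467 for CRC. The mean of the sham libraries was 9774 ± 1920 CPM (SD, n = 3), that of the injury libraries 8878 ± 638 and that of the CRC libraries 8382 ± 830. The order of the means was sham, injury, CRC on this scale. Without TMM factors, as a share of all feature counts, it was the reverse, as CRC averaged 0.946%, injury 0.892% and sham 0.870%. The libraries of each group overlapped those of both others. Neighbours in either order did not differ beyond their spread. The coefficient of variation of Tmem252 was 19.6% in sham, 7.19% in injury and 9.90% in CRC, beside medians of 16.0%, 11.5% and 11% over the 493 features that average 100 counts or more. Counted against all records of a library, reads outside features included, Tmem252 had 74.7 ± 17.3 counts in sham, 72.1 ± 4.59 in injury and 78.1 ± 6.74 in CRC, as CPM of all records (SD, n = 3), and in that unit CRC and not sham had the highest mean.

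**Figure D2:**
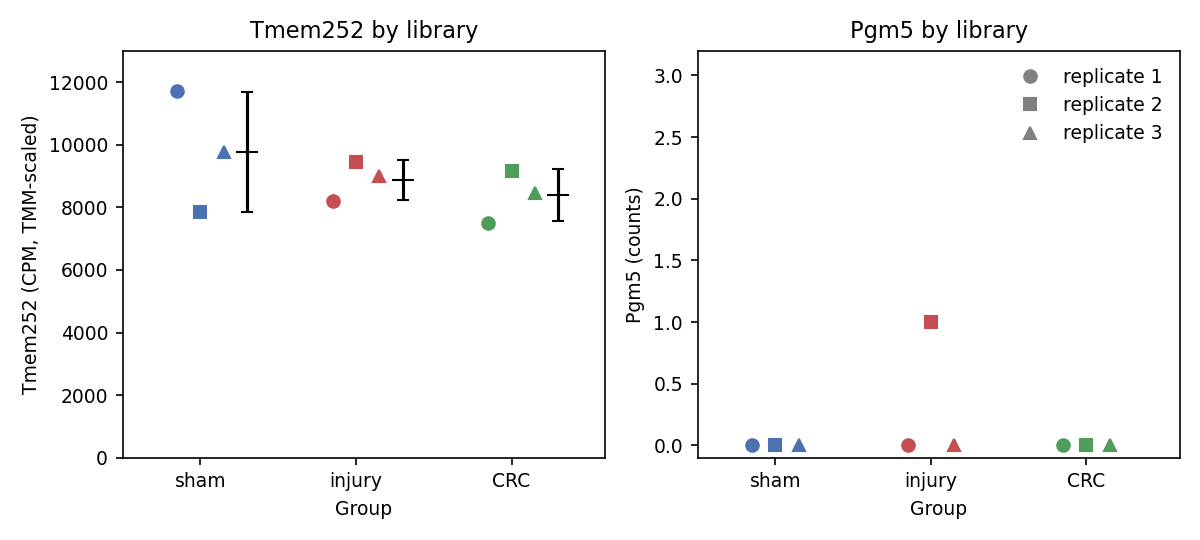
Left, CPM of Tmem252 in each library by group, with the mean and SD of 3 libraries as a black bar beside the points; right, counts of Pgm5 in the same libraries. Tmem252 lies between 7514 and 11702 CPM with all groups overlapping, and Pgm5 has a count in injury replicate 2 only.

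The CRC and sham groups were compared to ask whether transplanted uteri differed from uteri without injury. The log2 fold change of Tmem252 was -0.22 (standard error 0.13, 95% interval -0.49 to 0.050), and its adjusted p was 0.255 by the quasi-likelihood test of edgeR, adjusted after Benjamini and Hochberg. Tmem252 was not among the 746 features called at an adjusted p under 0.05, which were 20.0% of those tested, 299 higher and 447 (12.0%) lower in CRC. This balance turned with library sizes that include reads outside features, with 643 of 924 called features higher, and without CRC replicate 1 or 2 the number higher was 187 or 182. Of all features tested, 23.4% had a smaller change in either direction. The call depended on 1 library. Without sham replicate 2, the lowest of its group, the log2 fold change was -0.38 with an adjusted p of 0.0280 by the same edgeR test and Benjamini-Hochberg adjustment, and over all alternatives the adjusted p lay between 0.0280 and 0.765. Without sham replicate 1, the highest, the log2 fold change was -0.091. In whole tissue, fewer cells that hold an RNA and less of that RNA per cell cannot be told apart.

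Between CRC and injury, which share the needle injury and differ in the transplanted cells, the log2 fold change of Tmem252 was -0.08 (standard error 0.13, 95% interval -0.35 to 0.19, adjusted p = 0.765, edgeR quasi-likelihood with Benjamini-Hochberg). In that comparison 481 features were called, 12.9% of those tested, and 7.82% were lower in CRC. Between injury and sham, which asks for the effect of the injury, the log2 fold change was -0.14 (standard error 0.13, 95% interval -0.41 to 0.13, adjusted p = 0.710 by the same edgeR test and Benjamini-Hochberg adjustment). Here 16 features were called, 0.430% of those tested, and 154 without sham replicate 1. Without that library the log2 fold change of Tmem252 was 0.016, so that its direction turned. The intervals reach down to -0.49 on the log2 scale for CRC against sham, and a p above the threshold does not show that the groups were alike.

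Pgm5 had 0 counts in 8 libraries and 1 count in injury replicate 2. By counting error alone, up to 3 counts are allowed where 0 were seen, which at these depths is 9.14 to 11.1 CPM. Of the 24299 counts on both genes, Pgm5 held 0.00412% (95% Wilson interval 0.000726% to 0.0233%). In single libraries a count of 0 allowed a share of up to 0.0831% to 0.141%. Nothing is drawn from an exact permutation test of the share, which cannot go below 0.1 with 3 libraries against 3. No fold change is given for Pgm5, which failed the filter on low counts, and with 1 count in all a difference between groups was not detectable. The limits are those of counts on the Pgm5 feature and not of Pgm5 RNA, since the strand setting of counting is not given.

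Few counts lay on other genes around the pair. From 500 kb before to 500 kb after, GENCODE has 20 genes, of which 17 are listed among the features. Of these, 9 held 0 counts over all libraries, 6 held between 1 and 9, and 2 held at least 10, which were Tmem252 and the processed pseudogene Gm16216 with 23 counts. Tmem252 held 99.9% of the counts in this window, and all other genes together held 34.

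The starts of the 2 genes lie at the outer ends of the pair, and the 250 bases before each start are printed because the 2 genes held such unlike counts. Both sequences are from RefSeq on GRCm38.p6, in the direction of transcription, and both members matched an entry. That of Tmem252 spans chr19:24673758-24674007 on the plus strand, and that of Pgm5 spans chr19:24861843-24862092 on the minus strand. The motifs searched were the TATA box as TATAAA or with the spelling TATATAA, the GC box as GGGCGG, the CAAT box as CCAAT and the CArG box by its name, and capitals mark those found, each searched on both strands, and no marked motif overlaps another.
Tmem252: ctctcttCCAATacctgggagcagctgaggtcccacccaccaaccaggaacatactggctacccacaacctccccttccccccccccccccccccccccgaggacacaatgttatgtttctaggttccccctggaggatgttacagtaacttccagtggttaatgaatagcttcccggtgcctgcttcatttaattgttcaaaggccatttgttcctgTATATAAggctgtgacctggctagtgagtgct
Pgm5: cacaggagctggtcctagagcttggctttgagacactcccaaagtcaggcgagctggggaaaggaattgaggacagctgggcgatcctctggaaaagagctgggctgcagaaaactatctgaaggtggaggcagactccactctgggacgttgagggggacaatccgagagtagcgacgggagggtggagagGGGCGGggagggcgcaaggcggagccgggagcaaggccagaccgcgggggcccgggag
The Tmem252 sequence has TATATAA starting 32 bases before the start, a motif held by 3.04% of 32851 promoters of this length, and CCAAT starting 243 bases before it, held by 33.8%. Its GC content is 53.2% with 2 CpG, beside medians of 52.4% and 6 over all promoters. The Pgm5 sequence has GGGCGG starting 58 bases before the start, held by 32.7% of promoters, with a GC content of 63.2% and 13 CpG. TATAAA, held by 12.4% of promoters, and the CArG box, held by 1.47%, were found in neither window.

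The 5 features whose log2 CPM followed Tmem252 most closely over the 9 libraries, among 492 others that average 100 counts or more, were Snhg14, Gpld1, Gm10644, Mrps25 and Atg4d. Their Pearson r with Tmem252 was 0.88, 0.81, 0.80, 0.80 and 0.79, and their Spearman rho was 0.85, 0.78, 0.88, 0.60 and 0.70. The points are the same 9 libraries and share their depth and scaling, so these values are a description. By Spearman's rho Gpld1 ranked 10.5, Atg4d 29.5 and Mrps25 52, so that 3 of the 5 left the first 5, and with a prior count of 0.5 Atg4d ranked 6th. Snhg14, a long non-coding RNA that runs opposite the ubiquitin ligase gene Ube3a, measured 3065, 1377 and 1974 CPM for sham, 1790, 2767 and 2411 for injury and 1413, 2099 and 1708 for CRC. Like Tmem252 it was highest in sham replicate 1, and sham replicate 2 was its lowest library. Each of the 5 features has an annotated exon on the opposite strand, and none of them was called by edgeR in any of the 3 comparisons.

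Genes related to Pgm5 were looked up on their own features. Since the strand setting of counting is not given, counts on a gene's own feature are not read as the level of its RNA. Of the 5 genes of the phosphohexomutase family, Pgm1, which interconverts glucose phosphates, and Pgm2 held 0 counts, Pgm5 held 1 and Pgm2l1 held 3. Pgm3, an enzyme of the hexosamine pathway, held 329 and was the only one tested, with log2 fold changes of -0.65 for CRC against sham, 0.11 for CRC against injury and -0.76 for injury against sham, none of them called. The values against sham rested on sham replicate 2, which held 72 counts where the other sham libraries held 38 and 31, and without it they were -0.17 and -0.26. Without CRC replicate 1 that for CRC against injury turned to -0.026. Of the 2 tested features opposite these genes, Itgb3bp, opposite Pgm1, had log2 fold changes of 0.37 for CRC against sham and 0.21 for CRC against injury and was not called. The other, Dop1a, whose exons overlap those of Pgm3, counted 104, 100 and 116 in the sham libraries, 89, 110 and 116 after injury and 67, 54 and 65 after CRC transplantation. All CRC libraries lay below the others. Groups without overlap were found for 35.5% of all features tested in CRC against sham and for 33.5% in CRC against injury. Dop1a fell by 0.95 on the log2 scale in CRC against injury and fell by 0.98 in CRC against sham (for the latter, standard error 0.21, adjusted p = 0.00113, edgeR quasi-likelihood with Benjamini-Hochberg).

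The dystrophin complex and the filamins tie actin to the membrane, and Pgm5 binds members of both. Of 17 genes of this list, 7 held 0 counts, among them the sarcoglycans Sgca, Sgcb and Sgcd, and Dmd, which encodes dystrophin, held 3. Utrn held 33 counts, Flna 26 and Flnc 19. Xirp1, which encodes the actin-binding protein Xin, was the only member tested. It counted 0, 0 and 5 in the sham libraries, 0, 0 and 2 after injury and 12, 23 and 18 after CRC transplantation. Xirp1 passed the filter through the CRC libraries alone, where it is high, so no difference is drawn from it.

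Focal adhesions and the dense plaques of smooth muscle anchor actin through vinculin, talin and integrins. Of 20 genes of this list, 4 held 0 counts and 4 were tested, which were Vcl, Ilk, Actn1 and Nexn. Actn1, an actin cross-linker, fell by 1.51 on the log2 scale in CRC against sham (standard error 0.41, adjusted p = 0.00796, edgeR quasi-likelihood with Benjamini-Hochberg). For CRC against injury its log2 fold change was -0.63 and for injury against sham -0.88, neither of them called. Vcl, the gene of vinculin, had a log2 fold change of -0.18 in CRC against sham, Ilk of -1.0 and Nexn of 0.04, and none of these was called. Opposite the list, 7 of 12 features were tested and 3 fell in CRC against sham, beside 12.0% lower over all features, namely Ap3m1 opposite Vcl, Taf10 opposite Ilk and Gm47766 opposite Actn1. The same 3 fell in CRC against injury, beside 7.82% over all features, and Gpr17 opposite Lims2 rose, by 0.66 on the log2 scale. In CRC against sham the log2 fold change of Gpr17 was 0.25, that of E030013I19Rik, opposite Itga8, 0.93, that of Epha1, opposite Zyx, 0.09 and that of Rrp8, opposite Ilk, -1.94, none of them called.

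Of 16 smooth muscle genes, each held at least 1 count and 5 were tested, which were Myh11, Tagln, Lmod1, Cald1 and Tpm2. Myh11, the smooth muscle myosin heavy chain, fell by 1.25 on the log2 scale in CRC against sham, and its log2 fold change was -0.34 for CRC against injury and -0.90 for injury against sham, neither of them called. Cald1, caldesmon, fell by 0.93 against sham and fell by 0.76 against injury. Tagln with -1.13, Tpm2 with -1.10 and Lmod1 with 0.13 were not called against sham, nor against injury, where they had -0.77, -0.35 and 0.062. Opposite the list, 5 of 7 features were tested, and Gm48529 and Pcsk7, both opposite Tagln, and Gm11946, opposite Smtn, fell in CRC against sham, where 12.0% of all features were lower. E130310I04Rik and Gm21691, both opposite Mylk, had log2 fold changes of 0.034 and -0.19 and were not called. Gm48529 and Pcsk7 fell against injury too, where 7.82% of all features were lower. Cald1 was not called against sham without CRC replicate 1 or 2, and Pcsk7 not without sham replicate 3, CRC replicate 2 or CRC replicate 3. Against injury, Cald1 was not called with any single injury library left out or without CRC replicate 1 or 2, Pcsk7 not without CRC replicate 2, and Gpr17 not without injury replicate 1 or 3 or CRC replicate 1 or 3. Library sizes with reads outside features also ended the calls of Cald1 against both groups and of Pcsk7 against sham, DESeq2's test that of Cald1 against injury, and testing without a filter those of Pcsk7 against sham and of Gpr17.

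Over these 4 lists, 11 genes were tested on their own features and 14 features opposite them. In injury against sham edgeR called 0 of the 11 and 0 of the 14, beside 0.430% of all features. An unadjusted p under 0.05 in edgeR was found for 3 and 5, and for 468 of all 3722. DESeq2 called 0 of the 11 and 1 of the 14, beside 21 of all features. Without sham replicate 1, edgeR called 1 of the smooth muscle genes in this comparison, among 154 features called in all.

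Ratios of counts within a library do not depend on the scaling between libraries. Tmem252 was set against the 7 features opposite smooth muscle and adhesion genes that held at least 900 counts. These were chosen after their values were seen, and the ratios are a description. The log2 ratio of Tmem252 to Gm48529 was -2.58, -3.07 and -2.74 for sham, -2.71, -2.47 and -2.56 for injury and -1.93, -1.57 and -1.67 for CRC. All CRC libraries lay above the 6 others. The mean was -2.80 ± 0.25 for sham (SD, n = 3), -2.58 ± 0.12 for injury and -1.72 ± 0.18 for CRC, so that CRC and sham differed by 1.07. For Taf10 the mean log2 ratio was -1.08 ± 0.10 in sham, -0.93 ± 0.10 in injury and -0.31 ± 0.05 in CRC, again without overlap between CRC and the other groups. For Ap3m1 it was -0.98 ± 0.12, -0.93 ± 0.05 and -0.27 ± 0.06 in the same order and with the same separation. For the other 4 features the CRC libraries overlapped those of sham or injury. Over all 492 other features that held at least 900 counts, the CRC libraries lay above the 6 others in 20.9% of such ratios. Of the 7 ratios, 5 had a higher mean for CRC than for sham, and those to Gpr17 and to E130310I04Rik were lower, with differences of -0.47 and -0.24. A ratio shows that 2 features changed unequally, and not which of them changed.

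**Figure D3:**
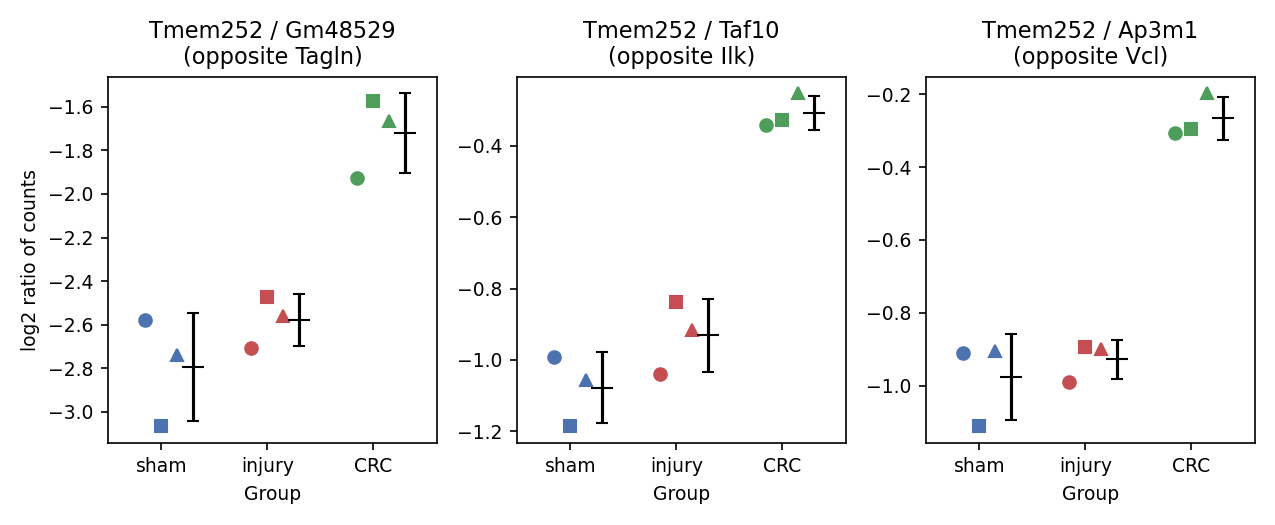
Log2 ratio of the counts of Tmem252 to those of Gm48529, Taf10 and Ap3m1 in each library by group, with circles, squares and triangles for replicates 1, 2 and 3 and the mean and SD of 3 libraries as a black bar; the vertical axes differ between panels and do not start at 0. Shown are the 3 of 7 ratios in which the CRC libraries lie above all sham and injury libraries, picked after the values were seen, with means of -1.72, -0.31 and -0.27.

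Markers of the cell types of the uterus were summed on their own features. Features opposite the smooth muscle markers held 130262 counts and those opposite the stroma markers 6697. Those opposite the epithelium and leukocyte markers held 2 and 14. With the strand setting of counting not given, a low count on a marker's own feature is not read as a lack of its RNA or cell type. The 7 smooth muscle markers summed to 903 counts over all libraries, with 117, 150 and 132 for sham, 84, 91 and 83 for injury and 78, 71 and 97 for CRC, and Myh11 held most of them, 459. The 7 stroma markers summed to 868 counts, led by the progesterone receptor gene Pgr with 619, with 87, 78 and 142 for sham, 81, 81 and 59 for injury and 129, 100 and 111 for CRC. The 2 that were tested were not called, Pgr with log2 fold changes of -0.082 for CRC against sham and 0.48 for CRC against injury and Hoxa11 with -0.15 and 0.20. The 8 markers of endometrial epithelium held 49 counts, led by Muc1 with 27, and Cdh1 and Foxa2 were at 0. Between 2 and 13 of these counts fell in each library, the CRC libraries having 6, 5 and 3.

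The 5 endothelial markers held 96 counts, led by Emcn with 48, the 3 adipocyte markers held 3, all on Plin1, and the 5 markers of striated muscle held 10, led by Ckm with 5. Of the leukocyte markers, Ptprc, Adgre1 and Cd3e were at 0, and Csf1r held 496 counts. Csf1r, the receptor gene of macrophage colony-stimulating factor, fell by 1.04 on the log2 scale in CRC against sham (standard error 0.26, adjusted p = 0.00431, edgeR quasi-likelihood with Benjamini-Hochberg), and its log2 fold change was -0.76 for CRC against injury and -0.28 for injury against sham, neither of them called. The part of cell types in the counts of Tmem252 was not tested.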

How the data were processed

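Counts of reads on 55228 features were deposited by the authors for each of 9 libraries, 3 per group and from separate mice, without normalization. The submitters' processing notes name HISAT2 2.1.0 and StringTie 2.1.1. The rows of uncounted reads bear names used by HTSeq, while the version and strand setting of counting are not given in the sources used here. These 5 rows held 99.2% of all records, reads in no feature 90.4%, and were left out of library sizes and tests. Groups and replicate numbers came from the sample labels.

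Features were filtered with filterByExpr, scaled by TMM on library sizes of all feature counts, and fitted over all 9 libraries with edgeR's robust quasi-likelihood model (R 4.3.3, edgeR 4.0.16, limma 3.58.1), with Benjamini-Hochberg adjustment over the 3722 features tested and a threshold of 0.05. The standard error was taken as the log2 fold change divided by the root of the F statistic. The script was tested on simulated data with changes put into 200 of 3722 features for CRC. In CRC against sham edgeR recovered 52.5% of these, and 77.9% of the 4-fold ones, while 7.89% of its calls were false. In injury against sham, where no change was put in, it called 0. CPM used all feature counts times the TMM factor. Binomial and Wilson intervals and the limits of a count of 0 cover counting error only, and copies from PCR were not told apart. Intervals of log2 fold changes came from the standard error of the fit and so include the spread between libraries. Tables and figures were made with Python 3.11.15, numpy 2.4.6, pandas 2.3.3 and matplotlib 3.10.9.

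Positions came from GENCODE M21 on GRCm38, in which 53462 features (98.4% of counts) were named once, and from RefSeq gene spans on GRCm38.p6. A figure legend of the paper names a GENCODE version other than M21 for its clustering. The reads may have been counted on another GENCODE release, in which exon lengths and opposite exons can differ. The members and lists were chosen with earlier results of these data known. Named genes were the 2 members, genes within 500 kb holding at least 10 counts, tested members of the 4 lists and the features opposite them, the 5 features most like Tmem252 by Pearson r of log2 CPM (prior count 2), and the 10 features with the most counts with and without an opposite exon. Other names, such as Mroh2a and untested list members, were chosen after their values were seen. Alternatives were DESeq2's size factors, the upper quartile, library sizes with reads outside features, scaling without the 3 features with the most counts, DESeq2 1.42.0, no filter, a minimum of 10 counts per library, the 2 groups fitted alone, the replicate block, equal depth, and leaving out each library. For likeness they were Spearman's rho and a prior count of 0.5. Ratios without single libraries were added after seeing the data.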

Additional observations from a re-analysis of the deposited data

How the results depend on the processing

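Under 19 alternatives the log2 fold change of Tmem252 ran from -0.38 to 0.064 for CRC against sham, passing the threshold in 1, and it passed in 0 of 19 for CRC against injury (-0.16 to 0.11) and 0 of 19 for injury against sham (-0.28 to 0.016). Library sizes with reads outside features turned the direction to 0.064 for CRC against sham and 0.11 for CRC against injury. They moved the median of all features to 0.32 and 0.21, and relative to it Tmem252 was at -0.26 and -0.09, beside -0.25 and -0.09 with TMM. With single libraries left out, the values ran from -0.38 (without sham replicate 2, adjusted p = 0.0280, edgeR quasi-likelihood with Benjamini-Hochberg) to -0.091 for CRC against sham and from -0.28 to 0.016 for injury against sham, where the direction turned without sham replicate 1; the cause was not tested. The count of features called between injury and sham, 16, was 5 with the replicate block and 6 in a fit of these 2 groups alone, while such a fit called 708 features in place of 481 for CRC against injury, 336 of them higher. It ran from 3, without sham replicate 3 or injury replicate 2, to 154, without sham replicate 1, and was 4 without injury replicate 3, 8 without injury replicate 1 and 10 without CRC replicate 3. Deviations of libraries with the same number correlated between -0.0964 and 0.0801, so the replicate numbers did not pair them, and with the replicate block the log2 fold change of Tmem252 was -0.22 for CRC against sham. The Pgm5 share ran from 0%, without injury replicate 2, which holds its only count, to 0.00483%. Of 19 calls of single genes named in the report, 14 passed under every alternative that gave a value, and 0 changed direction. The others were those of Cald1 and Pcsk7 against both groups and of Gpr17. Of the features called between CRC and sham, 299 of 746 were higher, and 643 of 924 with library sizes that include reads outside features; for CRC against injury these were 190 of 481 and 334 of 523. The 190 became 112 without injury replicate 1, 119 without injury replicate 3, 118 without CRC replicate 1 and 116 without CRC replicate 2. For the ratios, leaving out single libraries was an alternative chosen after seeing the data. The mean log2 ratios of the 3 plotted features were then higher in CRC than in sham by 0.64 to 1.18, and than in injury by 0.57 to 0.96. Their direction was fixed beforehand, since features with all CRC libraries above the others were picked, and only the sizes are given. Permutation tests of the ratios were run at first and were dropped because the features had been chosen after their values were seen. None could pass the threshold, since exact permutation of 3 libraries against 3 cannot give a p below 0.1. No fold change of Pgm5 is given under any alternative, since its counts lie at the floor. On the Pgm5 feature a count of 0 allows up to 11.1 CPM by counting error alone.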
